A study of Sus scrofa with 9 samples.

Results

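Small nucleolar RNAs (snoRNAs) and small Cajal body RNAs (scaRNAs) were examined in pig veins that had received mesenchymal stem cells and in untreated pig veins. The genes were the rows of the deposited expression table annotated as snoRNA or scaRNA whose mean over the 9 libraries was at least 1 RPKM (reads per kilobase of gene, scaled to the size of the library). Of 30477 rows in the table, 581 carried one of these annotations and 345 passed the threshold, 327 as snoRNA and 18 as scaRNA. Since 6 pairs of these rows overlap each other, the 345 rows stand for 339 loci. The genes were thus selected on their measured level in these libraries, over both groups together. The members just inside the threshold were SNORD113-8 with a mean of 1.03 RPKM, SNORD113-6 with 1.03 RPKM and ENSSSCG00000038625 with 1.06 RPKM, and the rows just outside it were ENSSSCG00000039831 with 0.991 RPKM, ENSSSCG00000031490 with 0.915 RPKM and ENSSSCG00000040458 with 0.846 RPKM. Of the 236 rows left out, 51 had no read in any library and 56 had reads in library MSC 2 alone.

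The MSC group held 6 libraries from the outflow vein of an arteriovenous fistula, a surgical joining of the carotid artery and the jugular vein, in pigs with induced chronic kidney disease. Adipose-derived mesenchymal stem cells in lactated Ringer solution had been placed on the outer layer of that vein directly after the fistula was made. The Control group held 3 libraries from outflow veins of fistulas left untreated, also in pigs with kidney disease, so no vein without a fistula, without kidney disease or with the carrier solution alone enters the comparison. In both groups the fistula was made 28 days after the onset of kidney disease and the vein was taken 28 days later. The labels have no field for strain, sex or age. The library names of Control 2 and MSC 1 carry tags (NT and F on Control 2, Allo and M on MSC 1) that the labels do not explain and that were not used. The labels also do not say whether each library came from a separate animal, so p-values speak only to the variation among these 9 libraries, some of which may be technical.

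SnoRNAs guide the chemical modification of other RNAs in the nucleus by base pairing. Box C/D snoRNAs direct ribose methylation and box H/ACA snoRNAs direct pseudouridylation, mostly of ribosomal RNA, while scaRNAs carry the same boxes and act on the spliceosomal RNAs in Cajal bodies. A few members, such as U3, U8 and SNORA73, are needed for cutting the ribosomal RNA precursor. In vertebrates most of these RNAs are released from introns of other genes.

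Between 16939157 and 47417606 reads per library fell on genes, and 1 read in a gene of 100 bases was worth between 0.209 and 0.585 RPKM. MSC 2 had the fewest reads, yet it had a read on 94.5% of all rows, against 71.7% to 84.2% in the other 8 libraries. The summed level of 5 smooth muscle markers was 176 to 4349 RPKM in MSC libraries and 283 to 701 RPKM in control libraries, and that of 4 fibroblast markers was 6913 to 34655 RPKM and 11337 to 14531 RPKM. In deposited RPKM all 5 smooth muscle markers were highest in MSC 5. Its fibroblast sum was also the highest, but it came from the collagens COL1A1 (18604 RPKM) and COL3A1 (15882 RPKM), while DCN was at 143 RPKM, the lowest of the 9 libraries, and PDGFRA at 25.4 RPKM, the second lowest. The leukocyte markers summed to 16.3 to 219 RPKM in MSC libraries, with 28.4 RPKM in MSC 5, and to 78.4 to 178 RPKM in controls. The endothelial markers summed to 22.0 to 110 RPKM in MSC libraries and 18.9 to 108 RPKM in controls, so the cell types of a vein wall were present in every library. Of the skeletal muscle markers in the table, ACTA1 was at 73.7 RPKM in MSC 6 and at most 0.926 RPKM elsewhere, while CKM was at 0.114 RPKM in MSC 6 and highest in MSC 5 with 1.27 RPKM. The libraries were sequenced on lanes 5, 6 and 7, and lane 7 held MSC 2, MSC 5 and MSC 6 and no control.

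The members took a large and very uneven share of the reads. Their share was 9.53%, 6.18%, 10.1%, 9.41%, 4.32% and 37.9% in MSC 1 to MSC 6, against 6.07%, 28.4% and 12.8% in Control 1 to Control 3. MSC 6 and Control 2 stood far above the other 7 libraries, and the groups overlapped over most of their range. The mean was 12.9% ± 12.4 in MSC libraries and 15.8% ± 11.4 in control libraries (SD, n = 6 and 3), a difference of -2.86 percentage points that is smaller than either SD. The exact binomial 95% interval, which covers counting error only, ran from 4.32% to 4.33% in MSC 5 and from 37.8% to 37.9% in MSC 6, so depth did not limit these shares. Within lane 5 the share was 9.53% in MSC 1, against 6.07% in Control 1 and 28.4% in Control 2. Within lane 6 it was 10.1% in MSC 3 and 9.41% in MSC 4, against 12.8% in Control 3. Without MSC 6 the difference between the group means was -7.85 points, without Control 1 it was -7.70 points and without Control 2 it was 3.44 points, so both its size and its direction depended on single libraries. In bulk tissue, fewer cells of a type and less RNA per cell cannot be told apart.

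Part of each share was counted more than once. Each of the 4 U3 copies on chromosome 12 is listed as a U3 row and as an unnamed row that starts 1 base earlier, and both rows hold nearly the same number of reads. At the main copy these were 1366347 and 1366347 reads in MSC 1, and 902403 and 902405 reads in Control 1. With the second row of each overlapping pair removed, also from the total, the share was 5.87%, 3.63%, 6.79%, 5.72%, 2.38% and 25.6% in MSC 1 to MSC 6, against 3.96%, 19.8% and 8.16% in Control 1 to Control 3. MSC 6 and Control 2 again led, and MSC 5 again had the lowest share. A further 3 members overlap a microRNA row, SCARNA16 with ssc-mir-6516, SNORA36B with ssc-mir-664 and SCARNA15 with ssc-mir-1839, so these reads cannot be assigned to one product.

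**Figure D1:**
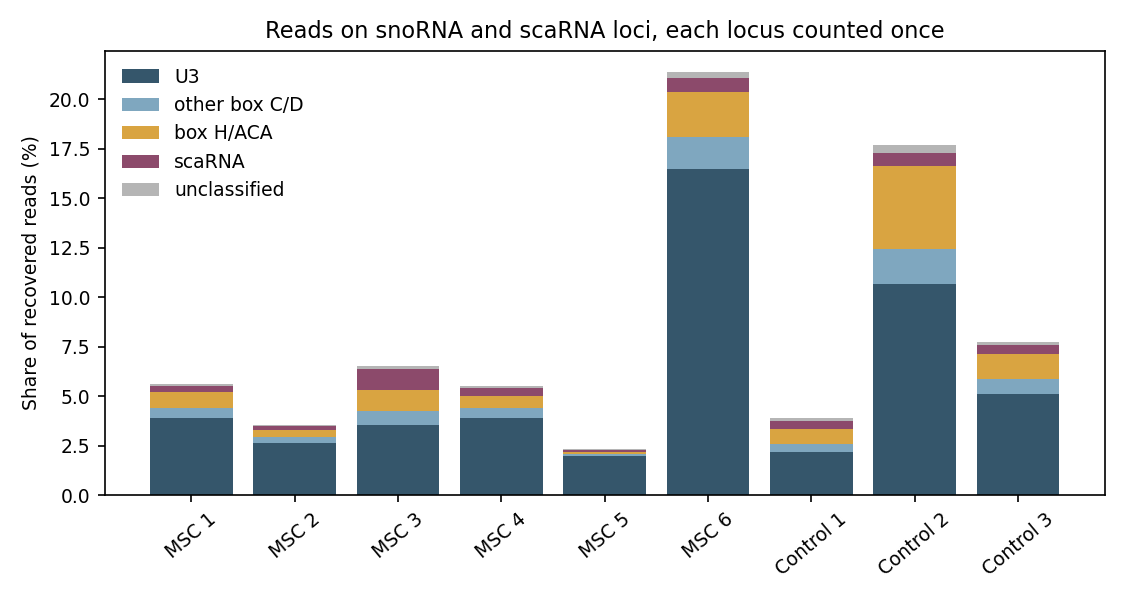
Share of all recovered reads (%, vertical axis) on the 339 loci in each library, with MSC libraries on the left and control libraries on the right. Each bar is 1 library and is split by class, with U3 apart from the other box C/D genes. The total is all listed reads, so the tallest bars are 21.4% in MSC 6 and 17.7% in Control 2, and U3 is the tallest segment in every library.

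Per length, levels spanned from 1.03 to 239457 RPKM in the mean over 9 libraries, with a median of 23.2 RPKM. A mean of at least 1000 RPKM was reached by 39 rows and a mean of at least 100 RPKM by 106 rows, while 120 rows stayed under 10 RPKM. By symbol or annotation, 142 rows were box C/D, 72 were box H/ACA, 21 were scaRNA and 110 could not be classed, 118 rows having no symbol at all. The median of the mean level was 12.4 RPKM for box C/D rows, 182 RPKM for box H/ACA rows, 177 RPKM for scaRNA rows and 14.2 RPKM for unclassified rows. Levels went with length across loci. The 115 loci of up to 80 bases had a median of 9.27 RPKM, the 58 of 81 to 110 bases 13.1 RPKM, the 141 of over 110 and up to 150 bases 96.5 RPKM and the 25 longer ones 1739 RPKM. Spearman's rho between length and mean RPKM was 0.557 over the 339 loci, which share the same libraries and the same recovery of short RNA.

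U3, the box C/D RNA that guides early cuts in the ribosomal RNA precursor, dominated every library. Its main copy, at chr12:34885727-34885942 (ENSSSCG00000040361), had 161584, 114078, 146337, 164872, 86012 and 703710 RPKM in MSC 1 to MSC 6, against 93334, 462476 and 222713 RPKM in Control 1 to Control 3. MSC 6 and Control 2 were the 2 highest libraries, MSC 5 and Control 1 the 2 lowest, and the other libraries lay between them in mixed order. After scaling by trimmed mean of M-values (TMM) factors the log2 fold change, MSC over control, was -0.11 ± 5.87 (SE) in a limma fit over all genes, with a Benjamini-Hochberg adjusted p of 0.997. That SE follows limma's trend of spread with level at its upper end, and without the trend it was 1.02, with an adjusted p of 0.981. An exact two-sided permutation test over the libraries gave p = 0.952, where the smallest p this design allows is 0.0238. Counting each locus once, U3 made up 69.0%, 74.9%, 54.0%, 71.1%, 85.1% and 77.0% of member reads in MSC 1 to MSC 6, against 56.6%, 60.3% and 65.7% in Control 1 to Control 3. The shares of MSC 3 lay below and those of the other 5 MSC libraries above the control range.

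The other 3 U3 copies on chromosome 12 lie close to the main one, within 17439 bases in all, and all 4 fall inside the span of TEX14, a gene of germ cell division, which itself averaged 0.611 RPKM. Copy B, at chr12:34888167-34888382, had 1296, 3436, 982, 1381, 22.6 and 24672 RPKM in MSC 1 to MSC 6, against 3088, 110 and 52.7 RPKM in Control 1 to Control 3. Its levels thus differed 1090-fold between MSC 6 and MSC 5, and its log2 fold change was 2.40 ± 2.01 (SE, limma, adjusted p = 0.920). Copy C, at chr12:34899381-34899596, had 16338, 3955, 15531, 13863, 5013 and 30733 RPKM in MSC 1 to MSC 6, against 3979, 24175 and 9742 RPKM in Control 1 to Control 3, with groups that overlapped throughout.

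Copy D, at chr12:34902950-34903165 (ENSSSCG00000038512), had 59.96, 414, 83.9, 47.9, 526 and 121 RPKM in MSC 1 to MSC 6, against 579, 4517 and 2181 RPKM in Control 1 to Control 3. On the deposited scale every MSC library lay below every control library, with MSC 5 close to Control 1, while on the scaled RPKM used for the test the groups overlapped. The log2 fold change was -3.52 ± 1.08 (SE, limma), the most negative of any member, with an unadjusted p of 0.00835 and an adjusted p of 0.736, so it did not pass the threshold. Its share of all U3 reads was 0.0334%, 0.339%, 0.0515%, 0.0266%, 0.574% and 0.0159% in MSC 1 to MSC 6, against 0.573%, 0.919% and 0.929% in Control 1 to Control 3, a ratio on which MSC 5 and Control 1 came out level. The 4 copies are neighbours of the same length, and the counting may have split reads between them, so the levels of single copies are uncertain. The 3 U3 rows on chromosomes 14 and 15 averaged 1.08 to 3.52 RPKM.

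**Figure D2:**
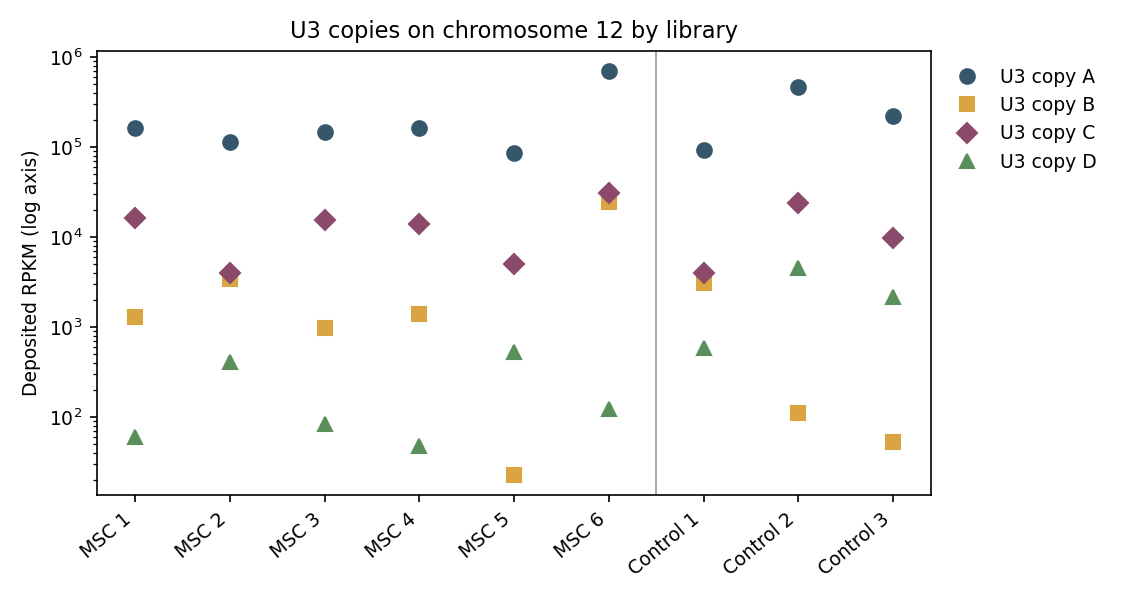
Deposited RPKM (log axis) of the 4 U3 copies on chromosome 12 in each library, with MSC libraries left of the line and controls right of it. Copy A is the main copy. Copy B is highest in MSC 6 and at 22.6 RPKM in MSC 5, and copy D is at 579 to 4517 RPKM in the controls and at 47.9 to 526 RPKM in the MSC libraries.

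Below U3, the abundant box C/D RNAs SNORD22 and U8 were highest in Control 2. SNORD22 (ENSSSCG00000029549), encoded with other members in a long non-coding host gene on chromosome 2, had 7813, 3941, 11062, 6447, 974 and 17866 RPKM in MSC 1 to MSC 6, against 7231, 23206 and 11785 RPKM in Control 1 to Control 3. Its log2 fold change was -0.93 ± 1.59 (SE, limma, adjusted p = 0.920). U8 on chromosome 12 (ENSSSCG00000023729), which is needed for processing the large-subunit ribosomal RNAs, had 2827, 1092, 2972, 2393, 301 and 7594 RPKM in MSC 1 to MSC 6, against 1599, 12721 and 3720 RPKM in Control 1 to Control 3. MSC 5 was the lowest library for both, MSC 6 the second highest, and the groups overlapped in each case.

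SNORD97, within the span of the translation factor gene EIF4G2, was much lower in MSC 5 than elsewhere. It had 4138, 2032, 8806, 3506, 29.4 and 12083 RPKM in MSC 1 to MSC 6, against 5377, 14972 and 7960 RPKM in Control 1 to Control 3. MSC 5 was far below every other library, and its log2 fold change was -1.83 ± 1.88 (SE, limma, adjusted p = 0.920). SNORD17, SNORD15 and SNORD10 had log2 fold changes of -0.47, -0.69 and -0.54, with adjusted p-values of 0.924 to 0.942 in the same fit, and SNORD15 was highest in MSC 6 and SNORD10 in Control 2. The 4 SNORD14 rows (the U14 family, needed for the small-subunit ribosomal RNA) averaged 13.4 to 167 RPKM and lie in HSPA8 and RPS13, in 2 rows each.

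**Figure D3:**
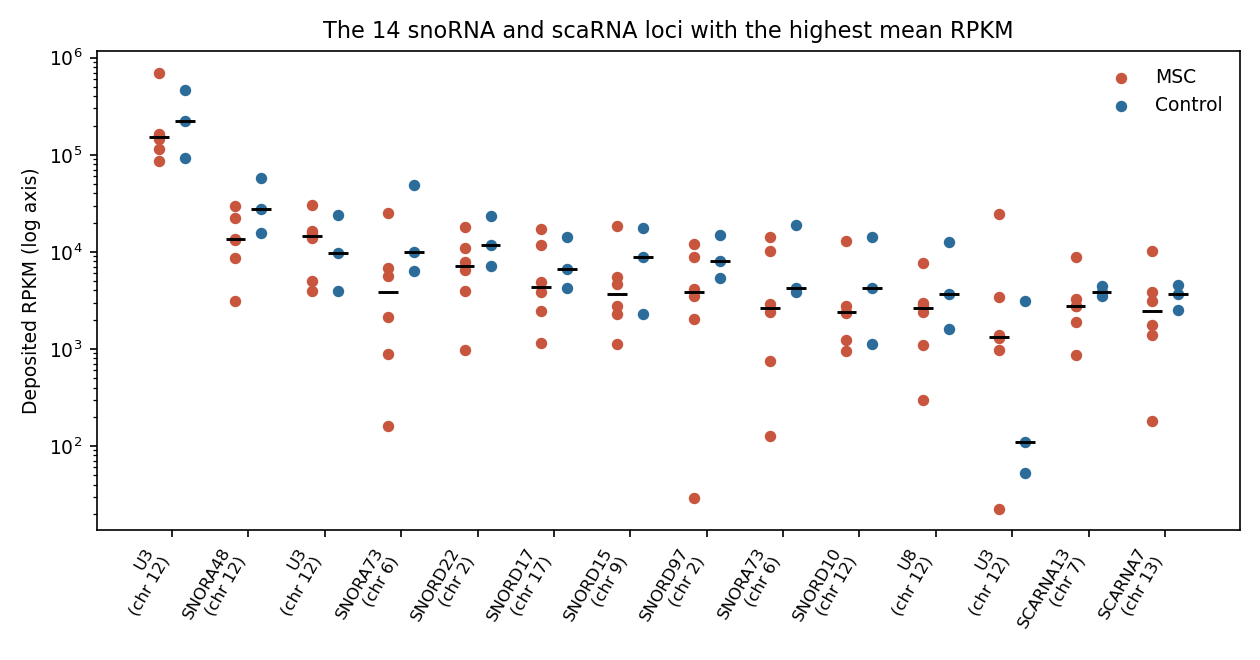
Deposited RPKM (log axis) of the 14 loci with the highest mean level, each point 1 library, with the 6 MSC libraries left of the 3 control libraries for each locus and a bar at each group's median. The groups overlap at every locus shown, and MSC libraries reach below the lowest control at each of them.

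Box H/ACA RNAs were the class with the most one-sided estimates. SNORA48, the highest of them and encoded in the span of EIF4A1, had 13711, 8671, 22111, 13265, 3127 and 29403 RPKM in MSC 1 to MSC 6, against 15825, 58285 and 27363 RPKM in Control 1 to Control 3. Its highest value was in Control 2 and its lowest in MSC 5, and the groups overlapped, with a log2 fold change of -1.09 ± 1.999 (SE, limma, adjusted p = 0.921). SNORA73 (ENSSSCG00000034185), which takes part in cutting the small-subunit rRNA precursor, had 6880, 2137, 880, 5582, 160 and 25363 RPKM in MSC 1 to MSC 6, against 6355, 48787 and 9923 RPKM in Control 1 to Control 3. Its log2 fold change was -2.31 ± 1.85 (SE, limma, adjusted p = 0.920). The second SNORA73 copy, about a kilobase away, had 14079 RPKM in MSC 3, where the first had 880 RPKM, and 125 RPKM in MSC 5, so the copies did not keep one ratio across libraries.

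SNORA8, inside TAF1D, ranged more widely. It had 2115, 237, 1931, 1027, 4.97 and 2498 RPKM in MSC 1 to MSC 6, against 1911, 6856 and 1991 RPKM in Control 1 to Control 3, and the log2 fold change was -2.41 ± 1.85 (SE, limma, adjusted p = 0.920). SNORA62, inside the ribosomal protein gene RPSA, and SNORA24 on chromosome 8 had log2 fold changes of -2.26 ± 1.397 and -2.25 ± 1.69 in that fit (SE, adjusted p = 0.920 for both), with 1.11 and 2.08 RPKM in MSC 5, against 71.6 to 625 RPKM and 274 to 2153 RPKM in the 3 controls. SNORA35B, the sole H/ACA row with an unadjusted limma p under 0.05 (0.0379, adjusted 0.920), had 25.7, 37.0, 26.7, 16.5, 12.4 and 70.2 RPKM in MSC 1 to MSC 6, against 61.7, 311 and 111.3 RPKM in Control 1 to Control 3. Its MSC 6 value lay above Control 1 and the other 5 MSC values lay below every control.

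In all, 70 of the 72 H/ACA rows passed the filter on low values. Their log2 fold change was negative for 70 and positive for 0, with a median of -1.33, while over all 17884 genes tested 44.7% were negative and the median was 0.04. The adjusted limma p was under 0.05 for 0 of the 70. These rows share 9 libraries, so their common sign is not 70 separate observations. The median H/ACA level was 133, 44.4, 174, 93.8, 10.2 and 293 RPKM in MSC 1 to MSC 6, against 123, 625 and 169 RPKM in Control 1 to Control 3, so MSC 1, MSC 3 and MSC 6 lay above Control 1. Without Control 2 the median log2 fold change was -0.44 with 15 rows positive, without MSC 5 it was -0.80 with 2 positive, and without both MSC 2 and MSC 5 it was -0.33 with 11 positive. In the other direction, it was -2.06 without Control 1 and -1.99 without MSC 6, each with 1 row positive. With the sequencing lane as a covariate the median was -0.94. Lane 7 held no control, so that estimate rests on MSC 1, MSC 3 and MSC 4 against the controls. As a share of member reads, with each locus counted once, H/ACA loci took 14.3%, 9.20%, 16.3%, 11.8%, 4.75% and 10.8% in MSC 1 to MSC 6, against 19.2%, 23.6% and 16.3% in Control 1 to Control 3. Here MSC 3 and Control 3 were nearly level and every other MSC library lay below the controls. U3 is part of that total, so a larger U3 share lowers the H/ACA share. Of member reads other than U3, H/ACA loci took a larger part in MSC 1 and MSC 6 than in Control 1. In MSC 2 to MSC 5 that part stayed below every control.

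The scaRNAs held both signs. The most abundant was SCARNA13, with 2755, 1909, 8940, 2791, 867 and 3276 RPKM in MSC 1 to MSC 6, against 3845, 4452 and 3529 RPKM in Control 1 to Control 3, and a log2 fold change of -0.37 ± 1.08 (SE, limma, adjusted p = 0.939). SCARNA7 had 1750, 1406, 10246, 3149, 179 and 3839 RPKM in MSC 1 to MSC 6, against 4504, 2523 and 3673 RPKM in Control 1 to Control 3. Both were highest in MSC 3 and lowest in MSC 5, and the 3 controls of SCARNA13 lay close together. SCARNA10, which guides modification of a spliceosomal RNA, had a log2 fold change of -0.54 ± 1.26 (SE, limma, adjusted p = 0.926).

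SCARNA1 had the lowest value of any scaRNA with a mean over 100 RPKM, in MSC 5. It had 442, 84.1, 979, 244, 0.383 and 937 RPKM in MSC 1 to MSC 6, against 597, 2624 and 756 RPKM in Control 1 to Control 3. Its log2 fold change was -2.67 ± 1.94 (SE, limma, adjusted p = 0.920). SCARNA2, a guide for the U2 spliceosomal RNA in human cells, went the other way, with 122, 28.4, 568, 149, 151 and 227 RPKM in MSC 1 to MSC 6, against 94.9, 70.0 and 70.6 RPKM in Control 1 to Control 3. All MSC libraries but MSC 2 lay above the controls, and the log2 fold change was 1.10 ± 0.91 (SE, limma, adjusted p = 0.920). SCARNA12, inside PHB2, was at 193, 29.5, 260, 176, 261 and 344 RPKM in MSC 1 to MSC 6, against 66.2, 158 and 103 RPKM in Control 1 to Control 3, again with MSC 2 as the one low MSC library and a log2 fold change of 0.90 ± 0.97 (SE, limma, adjusted p = 0.920). Of the other named scaRNAs, SCARNA16, SCARNA3, SCARNA11, SCARNA18 and SCARNA14 had log2 fold changes of -1.77 to -1.04 and SCARNA8 had -0.63, each with an adjusted p of 0.920 or above.

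Across all classes, 308 of the 345 rows passed the low-value filter, and the 37 others had means of at most 3.36 RPKM. The adjusted limma p was under 0.05 for 0 members, and for 0% of the 17884 genes tested. At an unadjusted p under 0.05 there were 2 members with higher and 5 with lower estimates in MSC libraries, against a background of 1.9% and 2.18% of all genes (4.08% in either direction). Both higher ones were lowly expressed box C/D RNAs, SNORD83B in the ribosomal protein gene RPL3 with a log2 fold change of 1.14 and SNORD123 with 0.67. The 5 lower ones were both rows of U3 copy D, SNORA35B, SNORD58 and the unnamed ENSSSCG00000018191. Apart from U3 copy B, the scaRNAs above and SNORD83B, the most positive estimates were those of SNORD93, an unnamed snoRNA inside TAF1D (ENSSSCG00000031259) and an unnamed scaRNA inside CHD3 (ENSSSCG00000029854), at log2 fold changes of 0.73, 0.86 and 0.87, each with an adjusted p of 0.920. The unnamed snoRNA ENSSSCG00000033141 had the second most negative estimate after U3 copy D, -2.75 ± 1.84 (SE, limma, adjusted p = 0.920). On scaled RPKM, 0 members had all MSC libraries above all controls and 0 had them all below, where 1.97% of all genes did in each direction.

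The log2 fold change was positive for 58 members and negative for 250, where 55.3% of all genes were positive and 44.7% negative. Its median was -0.63 over the members, -0.37 over box C/D rows, -1.33 over H/ACA rows, -0.63 over scaRNA rows and -0.53 over unclassified rows, against 0.04 over all genes. A pseudocount of 1 RPKM understates the change of low rows. Among loci with a mean of at least 100 RPKM, where it matters little, the median was -0.61 over 18 box C/D loci, -1.397 over 50 H/ACA loci and -0.54 over 13 scaRNA loci. The members' median was -0.31 without MSC 5, -0.29 without Control 2, -0.96 without MSC 6 and -0.08 without both MSC 2 and MSC 5. Each library's median deviation from the control mean was -0.64, -1.35, -0.19, -0.85, -2.29 and 1.504 on the log2 scale in MSC 1 to MSC 6, against -0.75, 1.14 and -0.29 in Control 1 to Control 3, a spread within each group larger than the difference between them.

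**Figure D4:**
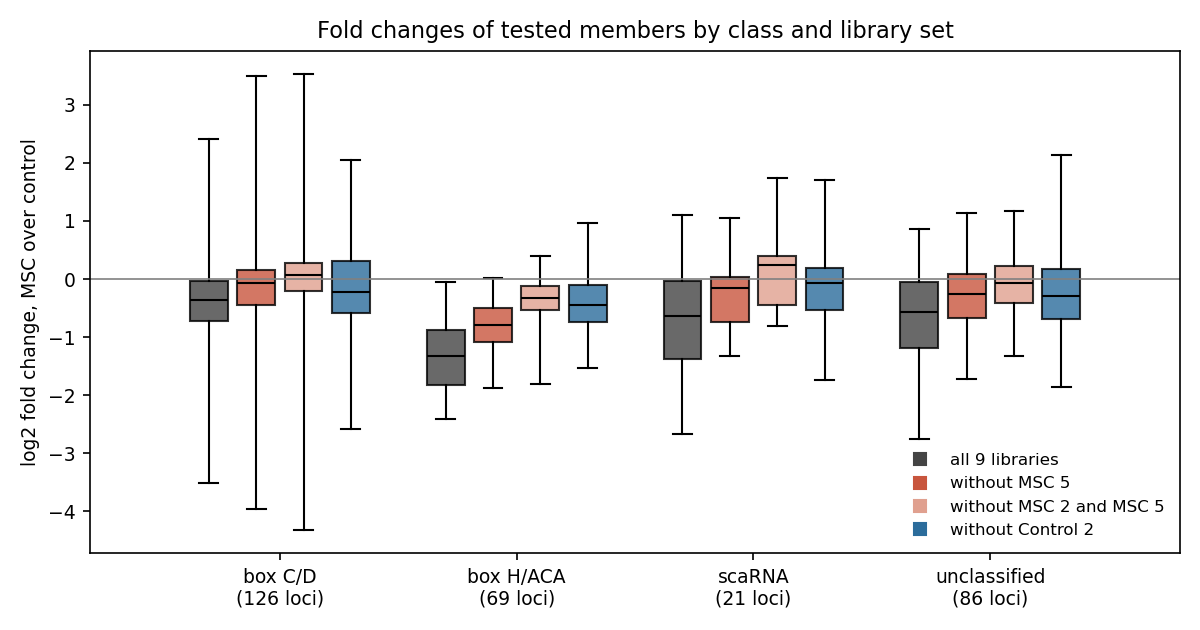
Log2 fold changes, MSC over control, of the tested loci by class (boxes from the lower to the upper quartile, line at the median, whiskers to the lowest and highest locus), with all 9 libraries and with libraries left out. With all libraries each H/ACA locus is below 0. Leaving out MSC 5, both MSC 2 and MSC 5, or Control 2 brings each class median closer to 0 or past it. Leaving out MSC 6 or Control 1, not drawn here, moves each class median further from 0.

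MSC 5 differed most from the rest. It had the lowest level of the 9 libraries at 235 of 339 loci, no read at 43 loci, and a median member level of 2.66 RPKM, against 14.1 to 32.7 RPKM in the other 8 libraries. Its median Spearman correlation with the other libraries over the loci was 0.679, where the other libraries had 0.865 to 0.954. The low values were uneven. At 154 loci MSC 5 was under 0.1 times the median of the other 8 libraries, yet at 36 loci it was above that median. Among abundant loci it was low for SNORA8, SCARNA1 and SNORD97, described above, and for SNORA74 (ENSSSCG00000018891), with 48.1 RPKM in MSC 5 and 700 to 9028 RPKM elsewhere.

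By contrast, the most abundant SNORA71 row (ENSSSCG00000021542), another H/ACA RNA, had 709, 708, 660, 600, 718 and 2119 RPKM in MSC 1 to MSC 6, against 475, 2483 and 980 RPKM in Control 1 to Control 3, so MSC 5 lay among the other MSC libraries. The unnamed snoRNA ENSSSCG00000032948, inside NAP1L4, had 193, 43.7, 241, 227, 987 and 1898 RPKM in MSC 1 to MSC 6, against 28.1, 1212 and 315 RPKM in Control 1 to Control 3, and MSC 5 was the third highest of all. ENSSSCG00000033141 on chromosome 3 had no read in MSC 5, where 3 reads would have been 0.442 RPKM, and 8.26 to 1329 RPKM elsewhere. The median ratio of MSC 5 to the other libraries was 0.151 for box C/D, 0.0868 for H/ACA and 0.138 for scaRNA loci. MSC 5 had the most reads of the 9 libraries, so depth does not limit these low values. On the deposited scale all 5 of its smooth muscle markers were the highest of the 9 libraries, while the fibroblast markers went both ways. On scaled RPKM, TAGLN and DES were highest in MSC 6 instead. The part of tissue makeup in these values was not tested.

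**Figure D5:**
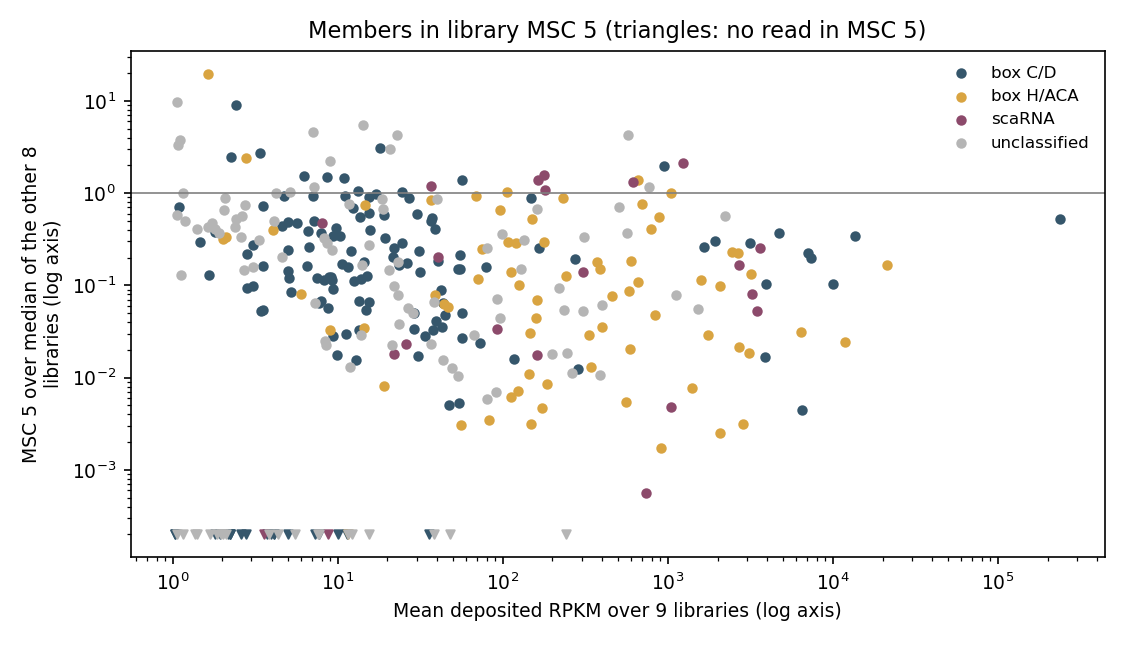
Ratio of the level in MSC 5 to the median of the other 8 libraries (vertical, log axis) against the mean deposited RPKM (horizontal, log axis), 1 point per locus, coloured by class. Points lie mostly under 1 at every level, 36 loci lie above it, and triangles at the bottom mark loci with no read in MSC 5, whose ratio is 0.

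Control 2 was the highest of the 9 libraries at 138 loci and Control 1 at 57. MSC 6, with a larger share of reads than either, was highest at 38, as was MSC 3. Control 2 and MSC 6 both carried much U3, but Control 2 also had the highest median H/ACA level, 625 RPKM, against 293 RPKM in MSC 6. MSC 2, the shallowest library, was highest at 38 loci and lowest at 27. Without MSC 2, 8 members would have fallen below the threshold. Separately, 8 low members were SNORD113 and SNORD114 rows, an imprinted box C/D cluster on chromosome 7, at means of 1.03 to 4.11 RPKM. The level in MSC 2 also counted toward the threshold passed by these rows. Their summed level was 6.90, 54.3, 28.7, 10.4, 0.822 and 6.39 RPKM in MSC 1 to MSC 6, against 26.2, 6.05 and 12.9 RPKM in Control 1 to Control 3, with MSC 2 and not MSC 6 or Control 2 in the lead.

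By position, 294 loci lie inside the span of another listed gene and 45 do not. There were 170 such host genes, 154 protein-coding and 16 long non-coding, and 62 of them held at least 2 loci. Where several genes held a locus, a protein-coding one was taken first, and strand was not used. Some assigned hosts may therefore only overlap the member, which was not tested. TAF1D, a transcription factor subunit for ribosomal RNA genes, held 10 loci, as did the unnamed long non-coding gene ENSSSCG00000050971 on chromosome 7, and ENSSSCG00000043175 on chromosome 2, which holds SNORD22 and SNORD26 to SNORD31, held 8. On deposited RPKM, levels of members and of the hosts so assigned moved together only loosely. RPKM is scaled to library size, so a larger member share lowers the values of other genes. The part of this in the rho values, here and for single hosts below, was not tested. Over the 9 libraries the median Spearman rho between a tested member and its host was 0.217 in 272 pairs, with quartiles of -0.121 and 0.533. The 163 tested hosts had a median log2 fold change of -0.003, where their members had -0.63, and the adjusted limma p was under 0.05 for 0 hosts and the unadjusted p for 1. That host was LRCH2, which holds SNORA35B, at -1.24 ± 0.23 (SE, limma, adjusted p = 0.374), against -2.04 for SNORA35B.

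Single hosts showed the same. EIF4A2, a translation factor gene holding 4 H/ACA RNAs and SNORD2, had a median rho of -0.0167 with its members, whose median log2 fold change was -2.01, against -0.25 for the host. NOP56, which encodes a core protein of the C/D particle and holds SNORA51, SNORD57, SNORD110, SNORD86 and SNORD56, had a log2 fold change of 0.21, against a median of -0.50 for its members. In 9 of the 170 hosts the median rho was at least 0.9, among them TMEM107, which holds U8, with 1.0, RPS3 with 0.95 and EIF4A1 with 0.925. The long non-coding host of SNORD22 and 7 other loci had 0.817. Which exons were counted, and whether reads were counted by strand, is not given in the sources used here, so reads of an abundant member may also be counted for its host.

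Among 14584 protein-coding genes, those whose level followed the summed member level most closely over the 9 libraries were ARHGEF39 and TMEM107, each with a Spearman rho of 0.983, EIF4A1 with 0.967, RPS3 with 0.933 and ENSSSCG00000040273 with 0.917. The first 4 of these have small RNAs listed inside their spans. ARHGEF39 holds the RNA of the RNase MRP ribozyme, TMEM107 holds U8, EIF4A1 holds SNORA48, SNORD10, SNORA67 and an unnamed snoRNA, and RPS3 holds both SNORD15 rows. The counts of these genes and of the small RNAs inside them may share reads. Other small RNAs varied between libraries too. Spliceosomal RNA rows took 0.050% to 2.82% of reads in MSC libraries, lowest in MSC 5 and highest in MSC 6, and 0.535% to 2.17% in controls. Ribozyme rows took 0.273% to 8.32% in MSC libraries, lowest in MSC 2 and highest in MSC 6, and 0.890% to 6.16% in controls.

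Genes of the proteins that bind, assemble and place these RNAs had mostly positive estimates with TMM scaling, and none passed the test. Of 35 listed genes, 31 were in the table and all 31 were tested. The log2 fold change was positive for 23 and negative for 8, where 55.3% of all genes tested were positive. Its median was 0.14, against 0.04 over all genes. With scaling by library total it was -0.011 (all genes -0.029), and with scaling by protein-coding reads -0.069 (all genes -0.067). The adjusted limma p was under 0.05 for 0, against 0% of all genes. The unadjusted limma p was under 0.05 for 0, against 4.08% of all genes. On scaled RPKM 2 of the 31, NOLC1 and ZNHIT3, had all MSC libraries above all controls, where 1.97% of all genes did.

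Of the C/D core, fibrillarin (FBL), the methyltransferase, had 7.25, 8.24, 4.59, 5.35, 9.39 and 5.46 RPKM in MSC 1 to MSC 6, against 6.13, 5.95 and 7.72 RPKM in Control 1 to Control 3, with a log2 fold change of 0.16 ± 0.39 (SE, limma, adjusted p = 0.931) that is negative with scaling by library total (-0.0063) or by protein-coding reads (-0.062). NOP56, NOP58 and SNU13 had log2 fold changes of 0.21, -0.34 and 0.31 in that fit. Of the H/ACA core, DKC1, the pseudouridine synthase, had 3.49, 2.64, 2.96, 2.71, 4.84 and 1.44 RPKM in MSC 1 to MSC 6, against 3.34, 2.19 and 2.64 RPKM in Control 1 to Control 3, with a log2 fold change of 0.21 ± 0.31 (SE, limma, adjusted p = 0.920). GAR1 had -0.35 ± 0.26. NOP10 had 0.03 ± 0.80 and varied widely, from 2.45 to 39.1 RPKM in MSC libraries and from 10.4 to 25.3 RPKM in controls, and NHP2 was not matched by symbol. The largest positive estimate of the list was for the assembly factor PIH1D1, at 0.64 ± 0.36 (SE, limma, adjusted p = 0.920), with 5.48, 5.21, 7.07, 5.64, 9.52 and 4.10 RPKM in MSC 1 to MSC 6, against 4.87, 2.97 and 4.44 RPKM in Control 1 to Control 3. None of the 11 listed long non-coding host genes, such as GAS5 and the SNHG genes, was matched by symbol, so none was analysed under its symbol. Unnamed long non-coding genes that hold members, such as ENSSSCG00000043175, were among the hosts above, and whether any is a listed gene was not tested.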

How the data were processed

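Per the labels' protocols, the input was 0.5 µg of total RNA, and the kit was TruSeq V2, and the labels do not state how RNA was selected. The authors deposited RPKM values per gene. Per the submitters' processing notes, builds susScr11 and mm10 were named, with no role. The aligner and counter are not given in the sources used here. Protein-coding symbols lay at their Sscrofa11.1 positions for 13636 of 13645 genes, and coordinates follow that build. Every value was a whole multiple, within 0.01, of what 1 read is worth in its library, so reads were recovered and used for depth, shares and the low-value filter (10 reads at the depth of the median library, reached in 3 or more libraries, with a sum of 15 or more). RPKM was divided by TMM factors, and log2(scaled RPKM + 1) was fitted with limma 3.58.1 in R 4.3.3, MSC against control, over 17884 genes with Benjamini-Hochberg adjustment and a threshold of 0.05. The fit was checked on simulated data. The alternatives were other scalings, pseudocounts and filters, limma-voom on the recovered reads, a replicate block, lane terms, omitted libraries and, chosen after seeing the data, leaving out MSC 2 with MSC 5, counting each locus once and dropping the trend of spread with level.

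Class came from the symbol or the annotation. Symbols came from the table for 218 rows and from a gene name table for 9. The named members were the 12 highest, the 8 most positive and 8 most negative, the symbol-bearing scaRNAs (up to 12), the U3, U8, U14, SNORA73 and SNORD17 families, the rows next to the threshold, the 5 most alike genes, and core and smallest-p particle proteins. SNORA74, SNORA71, SNORA35B, its host LRCH2, ENSSSCG00000032948, ZNHIT3, SNORD123, SNORD58 and ENSSSCG00000018191 were named after their values were seen, and fold changes of the lesser family copies were not followed through the alternatives. The members and lists were chosen with earlier results of these data known. Intervals cover counting error only. RNA sequences are not printed, since none was at hand.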

Additional observations from a re-analysis of the deposited data

Results flagged for a closer look

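In 6 of 52 values tested, 1 of the 6 MSC libraries stood apart from the others by Dixon's criterion. In 5 of these 6 values that library was MSC 6. Chance would flag about 2.6 (1 in 20) if the values were independent. They come from the same libraries and some share the same U3 reads, so the flags are not separate observations. The share of reads on members was 37.9% in MSC 6, and the share on U3 rows was 16.5%. On the log2(scaled RPKM + 1) scale, MSC 6 also stood apart at the main U3 copy with 20.72, at SNORD15 with 15.48 and at SNORD10 with 14.94. MSC 5 stood apart at RUVBL2, an assembly factor of the particles, with 2.88. The skeletal muscle marker ACTA1 was also highest in MSC 6, the other marker CKM was not, and their part in these values was not tested.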

How the results depend on the processing

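Of 1142 values recomputed for 50 results, 44 log2 fold changes of single genes took the other sign. The difference between the groups in share of reads also changed sign. It was -2.86 points with all libraries, 3.44 points without Control 2 and 0.97 points without MSC 2 and MSC 5. In the 23 alternative fits, 0 members passed the threshold. The unadjusted limma p was under 0.05 for 7 members in the fit reported, 4 with limma-voom and 6 without the trend. It was so for 31 without MSC 6, 1 without Control 2 and 2 to 13 in the others. The members' median log2 fold change stayed negative throughout, from -0.96 (without MSC 6) to -0.29 (without Control 2) when single libraries were left out, and -0.08 without both MSC 2 and MSC 5. Scaling by protein-coding reads moved the median of all genes to -0.07, against 0.04 in the fit reported, and the members' median to -0.79. The particle protein list had a median of -0.011 with scaling by library total and -0.069 with scaling by protein-coding reads, and its range without single libraries was 0.05 to 0.17.

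Replicate numbers are shared by MSC and control libraries, but the correlation of their deviations was 0.22, -0.52 and -0.14 for numbers 1 to 3, so they do not pair the libraries, and no control was closest to the MSC library of its own number. No control shares a number with MSC 4, MSC 5 or MSC 6. A fit with a replicate block therefore rests on MSC 1 to MSC 3 against Control 1 to Control 3. With that block 0 members were called, the median was -0.71, and the log2 fold change changed sign for the U3 copy C (-0.15), ENSSSCG00000029854 (-0.27), SCARNA12 (-0.022), FBL (-0.17), NOP58 (0.13) and DKC1 (-0.0092). These values thus leave out MSC 4, MSC 5 and MSC 6.

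Other sign changes were in results that passed no threshold. Without MSC 2 and MSC 5 they were U3 copy A (0.36), SNORD17 (0.35), SNORD15 (0.022), SNORD10 (0.13), SCARNA13 (0.24), SCARNA7 (0.40), SCARNA10 (0.39) and SCARNA8 (0.37). Without Control 2 and MSC 6 they were U3 copy A (0.060) and NOP10 (-0.53). With lanes 5 and 6 alone they were SCARNA7 (0.016), FBL (-0.30) and NOP58 (0.32), and with lane as a covariate FBL (-0.24) and NOP58 (0.28). Lane 7 held no control, so both settings rest on MSC 1, MSC 3 and MSC 4 against the controls. Scaling by library total gave FBL (-0.0063) and NOP10 (-0.15), and by protein-coding reads FBL (-0.062), NOP56 (-0.021) and NOP10 (-0.19). NOP10 was -0.018 with a pseudocount of 0.1 and -0.14 with limma-voom. Leaving out single libraries gave ranges of -0.91 to 0.71 for U3 copy A, -0.45 to 1.31 for copy C, -1.08 to 0.28 for SNORD17, -1.71 to 0.23 for SNORD15, -1.67 to 0.62 for SNORD10, -1.07 to 0.075 for SCARNA10, -1.38 to 0.029 for SCARNA8, -0.053 to 0.33 for FBL and -0.45 to 0.44 for NOP10. The cause was not tested.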

Other observations

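By chromosome, 12 carried 31 member loci with the largest summed mean level, 294535 RPKM, most of it from U3, while 7 carried the most loci, 41, with a summed mean level of 7538 RPKM.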
